A study of Mus musculus with 6 samples.

Results

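Granulocytes, monocytes, erythroid cells, megakaryocytes and basophils or mast cells share the bone marrow with B cells, and 38 genes that mark these non-lymphoid lineages were followed across RNA of sorted mouse B cells. The genes were taken from a fixed list, chosen with earlier results of these data known. Every probe set that carried one of them as its only gene symbol was used, with no filter on expression. Of the 38 genes, 36 had such a probe set, 47 probe sets in all, out of 34945 probe sets for 18193 genes on the arrays. Cebpe and Retnlg had none and were not analysed here. The 36 genes comprised 13 granulocyte, 8 monocyte or macrophage, 7 erythroid, 4 megakaryocyte and 4 basophil or mast cell markers. A gene with several probe sets is given by the one with the highest mean over the arrays, unless stated.

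The series set TAK1-deficient against wild-type bone marrow B cells bearing Igκ, and Igκ against Igλ bearing cells of wild-type mice, on 6 Affymetrix arrays, 2 per group. All mice were C57BL/6, aged 8 to 12 weeks and of mixed sex. By genotype the TAK1-deficient Igκ+ group was mb-1/TAK1f/f, and the wild-type Igκ+ and wild-type Igλ+ groups were mb-1/TAK1+/+. The meaning of mb-1 is not given in the labels, nor whether arrays of a group came from separate animals, so a p-value here measures the spread between these arrays only, which may be technical. Before sorting by light chain, cells with CD3, Ter119, CD11b, DX5 or Gr1 on their surface had been removed: CD11b and Gr1 mark granulocytes and monocytes, Ter119 erythroid cells, DX5 NK cells and basophils, and CD3 T cells. The series title calls the mutant cells TAK1-/-, and the array whose title ends in "-rep" is called replicate 2.

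Neutrophils are made in the marrow in steps, and their granule proteins appear in an order. Myeloperoxidase and the serine proteases of the primary (azurophil) granules are transcribed in promyelocytes, lactoferrin, cathelicidin and related proteins of the secondary granules in myelocytes, and gelatinase later still, while the S100 proteins fill the cytosol. Erythroid precursors are led by GATA1 and KLF1 towards haem and haemoglobin synthesis, megakaryocytes load platelet granules with chemokines, and basophils and mast cells depend on GATA2 and display the high-affinity IgE receptor. None of these genes belongs to the program of a mature B cell, although single members such as Car2 or Vcam1 are also transcribed in other cells.

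Promoter sequences from RefSeq (GRCm38.p6, 250 bases before to 50 after the annotated start) were found for 28 of the 36 genes, in 30 windows. Those of 5 members are shown because these genes are high on the same array and come from different granule classes and lineages. The windows are chr3:90695672-90695971 (minus strand) for S100a9, chr9:110419558-110419857 (plus strand) for Ngp, chr11:87793534-87793833 (plus strand) for Mpo, chr5:90772185-90772484 (plus strand) for Pf4 and chr8:84901732-84902031 (plus strand) for Klf1. They run 5′ to 3′ on the gene's strand, and capitals mark matches, on either strand, to AGATAA or TGATAA (letters bound by factors of the GATA family), TTGCNNAA (C/EBP), AGAGGAA (Ets) and TGTGGT (Runx). No matches overlapped in these windows.
S100a9: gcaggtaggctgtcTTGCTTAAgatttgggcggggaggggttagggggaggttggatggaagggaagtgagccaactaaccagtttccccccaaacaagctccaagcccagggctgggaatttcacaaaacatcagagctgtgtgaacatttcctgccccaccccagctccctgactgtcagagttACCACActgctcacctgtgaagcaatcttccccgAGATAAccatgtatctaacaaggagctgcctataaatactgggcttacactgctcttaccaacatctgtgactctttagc
Ngp: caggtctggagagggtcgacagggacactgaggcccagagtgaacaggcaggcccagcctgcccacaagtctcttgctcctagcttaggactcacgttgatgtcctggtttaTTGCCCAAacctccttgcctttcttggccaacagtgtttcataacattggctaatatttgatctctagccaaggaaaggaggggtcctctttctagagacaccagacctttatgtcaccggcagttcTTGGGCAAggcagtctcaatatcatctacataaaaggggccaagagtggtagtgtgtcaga
Mpo: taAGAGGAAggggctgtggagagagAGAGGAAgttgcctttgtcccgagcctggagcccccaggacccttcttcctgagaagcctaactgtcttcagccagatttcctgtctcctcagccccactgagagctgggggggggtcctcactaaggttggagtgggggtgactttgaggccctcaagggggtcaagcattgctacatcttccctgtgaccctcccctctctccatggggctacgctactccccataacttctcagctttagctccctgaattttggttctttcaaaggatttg
Pf4: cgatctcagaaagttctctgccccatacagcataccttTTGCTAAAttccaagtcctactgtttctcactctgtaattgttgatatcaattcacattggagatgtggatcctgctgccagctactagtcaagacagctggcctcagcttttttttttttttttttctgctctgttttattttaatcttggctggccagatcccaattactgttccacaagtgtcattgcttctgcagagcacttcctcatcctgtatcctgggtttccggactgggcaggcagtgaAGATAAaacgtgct
Klf1: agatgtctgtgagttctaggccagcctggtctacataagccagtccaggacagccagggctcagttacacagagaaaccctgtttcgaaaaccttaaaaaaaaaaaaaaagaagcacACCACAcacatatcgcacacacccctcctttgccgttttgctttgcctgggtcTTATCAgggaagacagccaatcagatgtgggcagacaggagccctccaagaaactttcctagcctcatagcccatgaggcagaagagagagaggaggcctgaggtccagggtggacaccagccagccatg
The C/EBP letters occurred in 6 of 12 granulocyte windows and in 10 of 30 windows of all members, against 10.8% of 32851 promoters of the same length. The GATA letters occurred in 3 of 4 erythroid windows and 9 of 30 in all, against 18.6% of promoters. The Ets letters were in 7 of 30 (10.4% of promoters) and the Runx letters in 10 of 30 (16.8%). A match describes letters only and is not a binding site.

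The arrays were not alike before any marker was considered. The deposited values are MAS5 signals, that is, linear intensities scaled to one mean per array. Unspiked control probe sets, which have no target in the sample, had a 95th percentile of 77.7 and 75.7 on the TAK1-deficient pair but only 10.3 to 17.4 on wild-type arrays, and this value is called the control level below. For the TAK1-deficient pair the median probe set had a signal of 324 and 323, for wild-type arrays 44.9 to 59.1, and the 3′ to 5′ signal ratio of Actb was 6.28 and 4.18, compared with 1.25 to 1.58. Among wild-type arrays, Igλ+ replicate 1 and, less far, Igκ+ replicate 1 stood apart in the markers described here, so values are given array by array, and results with and without these arrays. The 3 probe sets of the κ constant gene Igkc, shared with κ variable genes, were at 472 to 660 on wild-type Igλ+ replicate 1, but at 9671 to 11218 on the array labelled Igλ+ replicate 2, where the wild-type Igκ+ arrays had 11099 to 13077. The probe set shared by the λ genes Iglc1 and Iglv1 was 10791.5 and 11494.7 on the Igλ+ arrays and 7409 and 9221 on the wild-type Igκ+ arrays. Another Iglv1 probe set was 6978 and 7443 on the Igλ+ arrays, against 2740 and 3102. A further one was 7382 and 8683 against 5490 and 3018, and the last 2737 and 4976 against 5382 and 4263. The κ signal of the array labelled Igλ+ replicate 2 thus goes against its label, while its λ signals were as high as those of replicate 1. "Igλ+ replicate 2" below names that label only. Most general B cell genes were high on all arrays. Cd79b, a chain of the B cell receptor, was between 9747 and 16459 and Ms4a1, which encodes CD20, between 10087 and 26569. Pax5 was only between 101 and 193. The TAK1-deficient pair had more Ms4a1 (21780 and 26569, against 10087 to 11337 on wild-type arrays) but less Cd79a (2594 and 3166, against 6666 to 8190). The summed signal of the B cell genes was 73900 and 83784 on that pair and 58491 to 62832 on wild-type arrays. Precision is limited by having 2 arrays per group.

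Among wild-type arrays all 5 lineages were highest on Igλ+ replicate 1, second on Igκ+ replicate 1 and lower on both replicates numbered 2, by the median over their genes. The summed signal of the 13 granulocyte genes was 71.2% of the summed signal of 9 B cell genes on wild-type Igλ+ replicate 1, 9.92% on Igκ+ replicate 1, 0.615% on Igκ+ replicate 2 and 0.589% on Igλ+ replicate 2. It was 12.0% and 11.3% on the TAK1-deficient arrays. The percentages put the markers of an array beside its own B cell genes and are not shares of cells. In RNA of whole samples, fewer cells of a type and less RNA per cell cannot be told apart.

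The other lineages had the same array highest. Monocyte genes summed to 16.5% of the B cell genes on Igλ+ replicate 1, against 3.52% on Igκ+ replicate 1, 1.27% on Igκ+ replicate 2 and 0.604% on Igλ+ replicate 2. Megakaryocyte genes gave 7.88% against 0.613%, 0.139% and 0.133% on the same arrays, and basophil and mast cell genes 12.3% against 2.40%, 0.245% and 0.117%. The erythroid sum was 5.79% against 2.06%, 2.70% and 1.73%, a narrower range, in which Car2 took a large part on every wild-type array. On the TAK1-deficient arrays the 4 sums were 3.80% and 3.47% (monocyte), 0.900% and 0.446% (megakaryocyte), 2.16% and 2.11% (basophil and mast cell) and 1.93% and 1.45% (erythroid). The B cell list itself kept its level, with a median log2 level between -0.06 and 0.04 relative to the wild-type mean on each wild-type array.

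**Figure D1:**
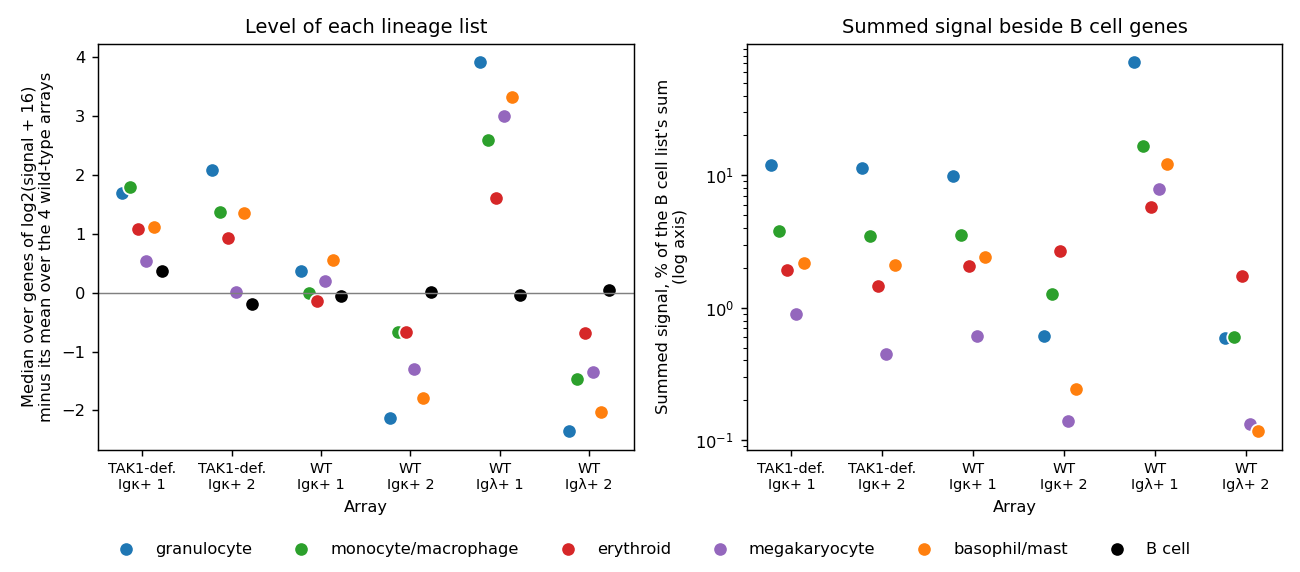
Level of each marker list on the 6 arrays: at left the median over genes of log2(signal + 16) relative to its mean over the 4 wild-type arrays, at right the summed signal as a percent of the summed B cell genes, on a log axis. Each point is one array; granulocyte genes reach 3.90 at left and 71.2% at right on wild-type Igλ+ replicate 1, and the B cell points stay near 0 on the wild-type arrays.

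Counted as genes above the control level of their array, all 36 members were above it on wild-type Igλ+ replicate 1, 33 on Igκ+ replicate 1, 26 on Igκ+ replicate 2 and 18 on Igλ+ replicate 2. On the TAK1-deficient arrays the count was 33 and 29, against a higher control level. Granulocyte genes gave 13, 12, 9 and 6 of 13 on the wild-type arrays in that order, monocyte genes 8, 8, 6 and 5 of 8, erythroid genes 7, 5, 4 and 3 of 7, megakaryocyte genes 4, 4, 3 and 2 of 4, and basophil and mast cell genes 4, 4, 4 and 2 of 4. On all 4 wild-type arrays 15 members were above it, and 18 were above it on Igλ+ replicate 1 but not on Igλ+ replicate 2.

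**Figure D2:**
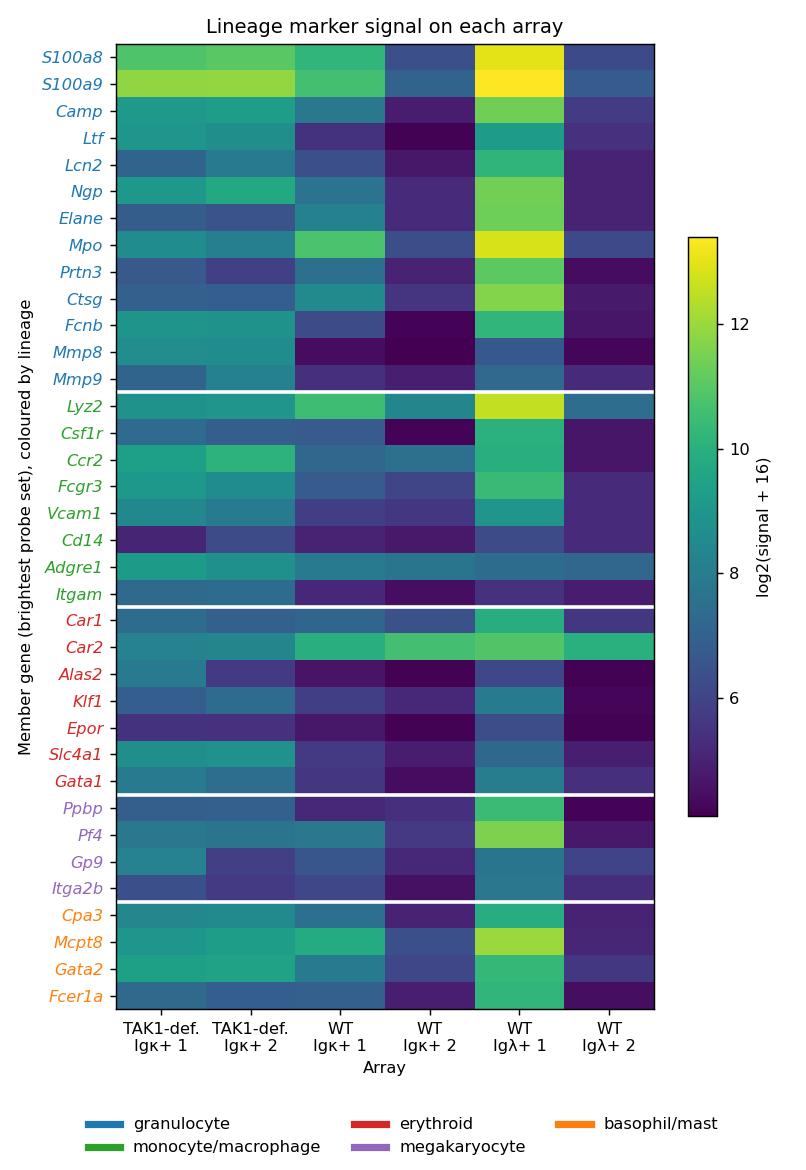
Heat map of log2(signal + 16) for the 36 member genes (lines, grouped by lineage) on the 6 arrays (columns), with brighter colours for higher signal. Colours compare arrays along a line and not genes with each other; the wild-type Igλ+ replicate 1 column is brightest among wild-type arrays for all members except Adgre1.

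The cytosolic S100 proteins S100a8 and S100a9, which pair as calprotectin in neutrophils and monocytes, differed widely between replicates of a group. S100a8 had a signal of 8309 on wild-type Igλ+ replicate 1 and 56.8 on replicate 2, 1189 and 65.9 on the wild-type Igκ+ arrays, and TAK1-deficient cells gave 1834 and 2064. S100a9 was 10779 and 96.5 on the Igλ+, 1546 and 117 on the wild-type Igκ+, and TAK1-deficient cells gave 3688 and 3772. For S100a8 the replicates of the wild-type Igλ+ group differed 146-fold and those of the wild-type Igκ+ group 18.0-fold, and both replicates numbered 2 were alike, so the 2 wild-type groups overlapped. For each gene the value of replicate 1 stands before that of replicate 2. The TAK1-deficient arrays lay between the wild-type arrays numbered 1 for S100a8 and S100a9, above both Igκ+ arrays.

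Genes of the secondary granules gave the same order among wild-type arrays. Camp, the cathelicidin precursor, was 2667 and 36.9 on the Igλ+, 208 and 12.4 on the wild-type Igκ+, and TAK1-deficient cells gave 543 and 599.6. Ngp, a neutrophil granule protein, was 2714 and 15.5 in the Igλ+, 186 and 22.2 in the wild-type Igκ+ and 519 and 852 in the TAK1-deficient cells. Igλ+ replicate 1 exceeded Igκ+ replicate 1 by 12.8-fold for Camp and 14.6-fold for Ngp. Lactoferrin (Ltf), which binds iron, was 582 and 26.6 on the Igλ+, 27.6 and 1.62 on the wild-type Igκ+, and TAK1-deficient cells gave 487 and 410.3. Lipocalin 2 (Lcn2), which captures bacterial siderophores, was 1152 and 16.7 in the Igλ+, 67.3 and 9.67 in the wild-type Igκ+ and 122 and 229 in the TAK1-deficient cells. Ficolin B (Fcnb), a lectin of the complement system, was 1176 and 9.45 in the Igλ+, 57.8 and 2.42 in the wild-type Igκ+ and 463 and 454 in the TAK1-deficient cells. For all 5 genes Igλ+ replicate 1 was highest and both TAK1-deficient arrays lay between it and the wild-type Igκ+ arrays.

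Metalloproteinases are stored in granules that form after the primary ones. Collagenase Mmp8 was 85.6 and 2.92 on the Igλ+ and 5.36 and 1.10 on the wild-type Igκ+ arrays, above the control level on Igλ+ replicate 1 alone among these 4, and TAK1-deficient cells gave 386 and 373. Gelatinase Mmp9 was 140.2 and 20.7 in the Igλ+, 25.9 and 13.4 in the wild-type Igκ+ and 121 and 275 in the TAK1-deficient cells. The second Mmp9 probe set was 51.2 and 12.4 in the Igλ+, 22.9 and 6.51 in the wild-type Igκ+ and, below the control level, 25.7 and 23.6 in the TAK1-deficient cells.

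Genes of the primary granules had TAK1-deficient signals between those of the 2 wild-type Igκ+ arrays. Myeloperoxidase (Mpo) was 7357 and 55.0 on the Igλ+, 1702 and 63.8 on the wild-type Igκ+, and TAK1-deficient cells gave 374 and 262. Neutrophil elastase (Elane) was 2560 and 16.1 in the Igλ+, 273 and 20.9 in the wild-type Igκ+ and 99.0 and 73.0 in the TAK1-deficient cells. Cathepsin G (Ctsg) was 3286 and 11.6 in the Igλ+, 348 and 29.1 in the wild-type Igκ+ and 107 and 102 in the TAK1-deficient cells. For these 3, wild-type Igκ+ replicate 1 was thus above both TAK1-deficient arrays and replicate 2 below both. Proteinase 3 (Prtn3), another serine protease of the class, was 2108 and 5.17 in the Igλ+, 168 and 15.8 in the wild-type Igκ+ and 86.7 and 41.3 in the TAK1-deficient cells, again between the wild-type Igκ+ arrays. Elane and Prtn3 were below the control level on the second TAK1-deficient array. The control levels of the TAK1-deficient arrays, 77.7 and 75.7, themselves lay between the wild-type Igκ+ values of Elane, Ctsg and Prtn3. For these genes a signal at background would thus also fall between them. Mpo showed the smallest ratio of Igλ+ replicate 1 to Igκ+ replicate 1 among granulocyte genes above the control level on both, 4.32, and Ltf the largest, 21.1, with a median of 11.0 over 12 genes.

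Among the monocyte and macrophage genes, the order held for lysozyme (Lyz2), which digests bacterial walls: 5921 and 156 on the Igλ+, 1438 and 314 on the wild-type Igκ+, and TAK1-deficient cells gave 453 and 476. Csf1r, the receptor for the macrophage growth factor CSF1, was 1023 and 9.31 in the Igλ+, 93.7 and 2.32 in the wild-type Igκ+ and 148 and 105 in the TAK1-deficient cells. Its other 2 probe sets also had their highest wild-type signal, 343 and 224, on Igλ+ replicate 1. Fcgr3, an activating receptor for IgG, was 1325 and 20.5 in the Igλ+, 91.7 and 49.9 in the wild-type Igκ+ and 521 and 375 in the TAK1-deficient cells. These 3 genes were all highest, among wild-type arrays, on Igλ+ replicate 1, and Lyz2 remained above the control level on every array.

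Ccr2, the chemokine receptor that brings monocytes out of the marrow, did not follow the order within the Igκ+ group. It was 965 on Igλ+ replicate 1 and 9.25 on replicate 2, 126 and 168 on the wild-type Igκ+ arrays, and TAK1-deficient cells gave 643 and 1082. Igκ+ replicate 2 was the higher of its pair, and the other 3 Ccr2 probe sets had the same order with 9.45, 34.3 and 23.7 against 6.78, 16.9 and 11.5. Of these signals 9.45, 6.78 and 11.5 were below the control level of their array. Vcam1, an adhesion molecule of marrow macrophages and stroma, was 477 and 21.2 in the Igλ+, 41.1 and 33.2 in the wild-type Igκ+ and 331 and 233 in the TAK1-deficient cells. Its other probe sets had the reverse order in the wild-type Igκ+ group, with 18.5 and 27.6 and, below the control level, 1.90 and 9.95.

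The remaining 3 monocyte genes differed less between the arrays numbered 1. Cd14, a co-receptor for lipopolysaccharide, was 59.3 and 20.8 on the Igλ+ and 16.4 and 10.5 on the wild-type Igκ+ arrays, and 17.1 and 61.3, both below the control level, on the TAK1-deficient arrays. Adgre1, which encodes the macrophage antigen F4/80, was 153 and 129 in the Igλ+, 234 and 193 in the wild-type Igκ+ and 555 and 421 in the TAK1-deficient cells, and was the only member of the 36 that was not highest on Igλ+ replicate 1 among wild-type arrays. Itgam encodes CD11b, one of the antigens used to remove cells, and was 26.6 and 12.9 in the Igλ+, 18.9 and 5.85 in the wild-type Igκ+ and 142 and 152 in the TAK1-deficient cells. Its signal on Igλ+ replicate 1 was thus 1.41 times that on Igκ+ replicate 1, while S100a8 gave 6.99 and Mpo 4.32 on the same pair of arrays. The Itgam signals were not far above the control levels of that pair, 13.1 and 13.4, so background limits its ratio.

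Among the erythroid genes, carbonic anhydrase 1 (Car1) followed the order, with 938 and 32.1 on the Igλ+, 123 and 68.3 on the wild-type Igκ+, and TAK1-deficient cells gave 152 and 109. The transcription factors of the lineage followed it too. Klf1 was 227 and 2.98 in the Igλ+, 40.8 and 19.6 in the wild-type Igκ+ and 100.3 and 148 in the TAK1-deficient cells, and Gata1 was 238 and 25.7 in the Igλ+, 31.9 and 5.37 in the wild-type Igκ+ and 221 and 158 in the TAK1-deficient cells. Slc4a1, the anion exchanger of the red cell membrane, was 135 and 13.4 in the Igλ+, 34.9 and 11.6 in the wild-type Igκ+ and 411 and 427 in the TAK1-deficient cells. Alas2, which starts haem synthesis in red cells, was 52.6 and 1.65 in the Igλ+, 8.15 and 1.90 in the wild-type Igκ+ and 232 and 34.8 in the TAK1-deficient cells, and the receptor Epor was 64.1 and 1.64 in the Igλ+, 9.61 and 1.80 in the wild-type Igκ+ and 28.3 and 27.1 in the TAK1-deficient cells. For Alas2 and Epor all wild-type arrays except Igλ+ replicate 1 were at or below the control level.

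Carbonic anhydrase 2 (Car2) stood apart from the other erythroid genes. It was 1836 and 1008 on the Igλ+, 957 and 1540 on the wild-type Igκ+, and TAK1-deficient cells gave 286 and 312. Its wild-type signals differed by less than 2-fold, and both TAK1-deficient arrays lay below all 4 of them.

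Platelet basic protein (Ppbp), a chemokine of platelet granules, gave the widest contrast between the arrays numbered 1. It was 1374 and 2.41 on the Igλ+, 19.9 and 24.8 on the wild-type Igκ+, and TAK1-deficient cells gave 105 and 107, and the ratio of Igλ+ replicate 1 to Igκ+ replicate 1 was 69.1. Platelet factor 4 (Pf4), a chemokine of the same granules, was 2977 and 10.4 in the Igλ+, 207 and 33.6 in the wild-type Igκ+ and 209 and 189 in the TAK1-deficient cells, with a ratio of 14.4. Pf4 thus separated the wild-type Igκ+ replicates, and Ppbp did not. Both surface glycoproteins were highest on Igλ+ replicate 1 among wild-type arrays. Gp9, part of the receptor for von Willebrand factor, was 194 and 47.0 in the Igλ+, 80.6 and 19.3 in the wild-type Igκ+ and 285 and 42.0 in the TAK1-deficient cells, and Itga2b, the integrin chain CD41, was 203 and 23.9 in the Igλ+, 51.4 and 7.13 in the wild-type Igκ+ and 66.4 and 35.2 in the TAK1-deficient cells.

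All 4 basophil and mast cell genes had Igλ+ replicate 1 first and Igκ+ replicate 1 second among wild-type arrays. Mcpt8, the basophil protease, was 4054 and 18.4 on the Igλ+, 897 and 67.3 on the wild-type Igκ+, and TAK1-deficient cells gave 493 and 622. Cpa3, a carboxypeptidase of mast cell granules, was 933 and 16.7 in the Igλ+, 165 and 16.2 in the wild-type Igκ+ and 319 and 361 in the TAK1-deficient cells. The transcription factor Gata2 was 1227 and 32.7 in the Igλ+, 231 and 52.1 in the wild-type Igκ+ and 643 and 688 in the TAK1-deficient cells, and Fcer1a, the IgE-binding chain of its receptor, was 1176 and 5.67 in the Igλ+, 108 and 13.8 in the wild-type Igκ+ and 142 and 101 in the TAK1-deficient cells. In all 4 genes replicate 1 exceeded replicate 2 in the wild-type Igκ+ as well as in the wild-type Igλ+ group.

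Set against all genes, the order of the wild-type arrays was frequent among the members. Igλ+ replicate 1 was the highest wild-type array for 35 of 36 genes (97.2%), against 40% of all 18193 genes taken by 1 probe set each. Igλ+ replicate 1 came first and Igκ+ replicate 1 second for 31 genes (86.1%), against 19.7%. Replicate 1 exceeded replicate 2 by at least 2-fold, on signal + 16, in both wild-type groups for 21 genes (58.3%), against 1.06%. These 21 were 11 of 13 granulocyte, 2 of 8 monocyte, 1 of 7 erythroid, 3 of 4 megakaryocyte and 4 of 4 basophil and mast cell genes. The members were chosen with earlier results of these data known, so these shares are not independent support for the pattern. The counts describe these 4 arrays and carry no test.

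The contrast between replicates is given by lineage, with no test between lineages. Within the wild-type Igλ+ group the median log2 difference of replicate 1 over replicate 2 was 6.33 for granulocyte, 4.42 for monocyte, 2.36 for erythroid, 4.35 for megakaryocyte and 5.32 for basophil and mast cell genes, beside 0.02 for all probe sets. Within the wild-type Igκ+ group it was 2.53 for granulocyte, 0.48 for monocyte, 0.67 for erythroid, 1.50 for megakaryocyte and 2.28 for basophil and mast cell genes, beside 0.10. Many of the replicate 2 values behind these medians were below the control level, 18 of 36 on Igλ+ replicate 2 and 10 of 36 on Igκ+ replicate 2. With every signal raised at least to the control level of its array, the medians were 5.99, 4.30, 2.18, 3.92 and 4.99 in the Igλ+ group for granulocyte, monocyte, erythroid, megakaryocyte and basophil and mast cell genes, and 2.53, 0.35, 0.67, 1.41 and 2.28 in the Igκ+ group. The replicates numbered 2 resembled each other across groups, with a median log2 difference of -0.19 for Igλ+ over Igκ+ over all 36 genes. The TAK1-deficient replicates had a median difference of 0.03.

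**Figure D3:**
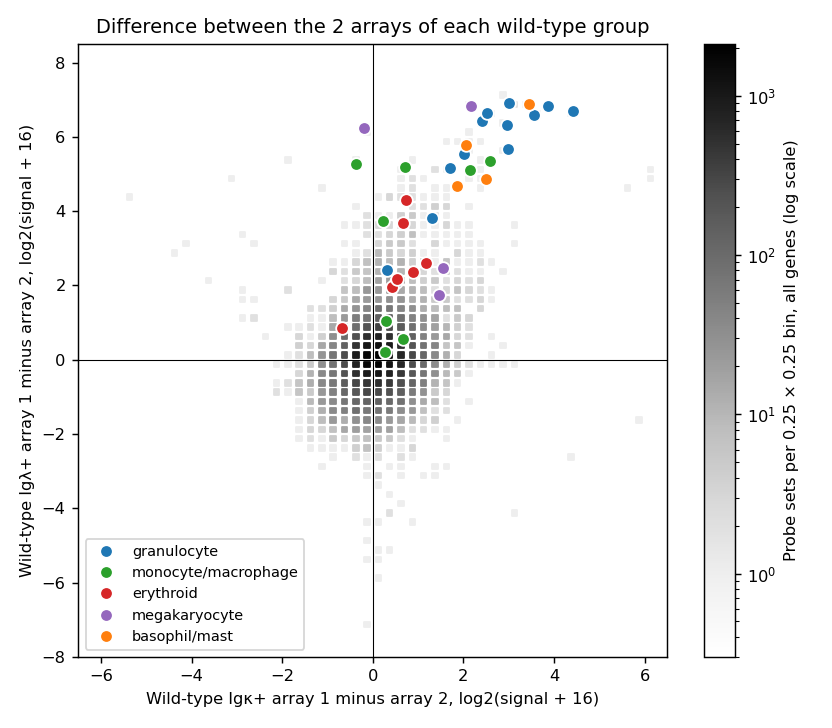
Replicate 1 minus replicate 2, in log2(signal + 16), of the wild-type Igκ+ group (x axis) and the wild-type Igλ+ group (y axis). Coloured points are the 36 member genes and grey squares count all single-gene probe sets on a log scale; 33 members lie above 0 on both axes, and granulocyte genes reach the upper right, while most probe sets lie near 0.

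Other lists of genes moved with the members across the wild-type arrays, and their part in the results was not tested. Further markers of each lineage, listed apart from the 36, were highest on Igλ+ replicate 1 for 12 of 14 granulocyte, 9 of 13 monocyte, 8 of 12 erythroid, 9 of 10 megakaryocyte and 6 of 6 basophil and mast cell genes. Their median log2 levels on that array relative to the wild-type mean were 1.72, 0.56, 1.08, 1.51 and 2.47. The brightest of the further granulocyte genes, the oxidase subunits Ncf1 and Cybb, are also transcribed in B cells and showed 4715 and 2454 on that array, against 3821 to 4316 and 2359 to 3291 on the other wild-type arrays. Of 5 eosinophil genes 4 were highest there, among them the granule protein Prg2 with 2389 against 662 on Igκ+ replicate 1, 72.4 on Igκ+ replicate 2 and 2.67 on Igλ+ replicate 2. Of 3 stem and progenitor genes measured 2 were highest there, Cd34 with 346 against 11.9 to 31.3 and Kit with 106 against 1.90 to 28.2. NK cell genes behaved otherwise: 3 of 5 were highest on Igκ+ replicate 2, where Gzma was 1457 against 387 on Igλ+ replicate 1, 22.6 on Igκ+ replicate 1 and 4.12 on Igλ+ replicate 2. The 5 measured genes of the antigens used for depletion summed to 147 on Igλ+ replicate 1, against 67.9 to 119 on the other wild-type arrays. TAK1-deficient cells gave 937 and 850, on arrays with control levels of 77.7 and 75.7, against 10.3 to 17.4 on wild-type arrays. Cd3d and Itga2 were below the control level on both TAK1-deficient arrays. Background thus adds to these sums, and they do not measure how well cells were depleted.

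The comparison of wild-type Igλ+ with wild-type Igκ+ cells, which sets the light chains apart at one genotype, gave no called member. One of its 4 arrays, the one labelled Igλ+ replicate 2, had κ constant signals like those of Igκ+ arrays. Its λ signals were as high as those of Igλ+ replicate 1. Any direction here thus rests on a label that the κ signals of that array do not bear out. It was fitted with limma on log2(signal + 16) over all probe sets, and with Benjamini-Hochberg adjustment 0 of 47 member probe sets passed the threshold of 0.05, beside 0% of all 34945 probe sets called higher and 0% lower. The smallest adjusted p of all was 0.99990, and at an unadjusted p under 0.05 there were 630 probe sets, 0 of them members. Values were nevertheless on one side: 45 of 47 member probe sets had the higher mean in Igλ+ cells; their median log2 difference was 0.98, beside 0.06 for all probe sets. Replicate spread was wide. S100a8 had a log2 difference of 1.31 ± 2.07 (SE), Mpo of 0.97 ± 2.12 and Pf4 of 1.42 ± 1.89, with 2 arrays per group. Groups did not overlap for 1 member probe set that was higher, Cd14 (2.13%, against 18.6% of all probe sets), and for 1 that was lower, Adgre1 (2.13%, against 8.22%).

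The direction of this comparison followed single arrays. Without wild-type Igλ+ replicate 1 the median log2 difference of the granulocyte genes was -1.48 and that of all 47 member probe sets -0.61. Without wild-type Igλ+ replicate 2 the granulocyte median was 4.66 and that of all member probe sets 3.06. In that fit 39 of 47 had an unadjusted p under 0.05 and 1 was called higher, Ppbp, with a log2 difference of 5.18 and an adjusted p of 0.0111 by limma, beside 0.00572% of all probe sets called higher and 0.0401% called lower. The only other probe set called higher was that of Tubb1, the tubulin of platelets, on the list of further megakaryocyte genes. In this fit the lone Igλ+ array was assumed to vary like the other groups. With both wild-type arrays numbered 1 left out, an alternative chosen after the data were seen, the lineage medians were -0.17 (granulocyte), -0.46 (monocyte), -0.02 (erythroid), -0.06 (megakaryocyte) and -0.47 (basophil and mast cell).

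The comparison of TAK1-deficient with wild-type Igκ+ cells gave calls for most probe sets, on arrays whose median signals differed as given above. Of all 34945 probe sets, 50.8% were called higher and 26.1% lower by limma with Benjamini-Hochberg adjustment, with a median log2 difference of 1.06. Of the 47 member probe sets 14 were called higher (29.8%), which is below the share of all probe sets, and 1 lower (2.13%), with a median of 2.06. Groups did not overlap, with higher values in TAK1-deficient cells, for 34 member probe sets (72.3%, against 57.9% of all), and with lower values for 1 (2.13%, against 31.5%). Counted by gene, 8 of 36 rose and 1 fell. They were 3 of 13 granulocyte genes, 2 of 8 monocyte genes, and 3 of 7 erythroid genes with 1 more lower, while 0 of 4 megakaryocyte and 0 of 4 basophil and mast cell genes were called.

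The granulocyte genes that rose were Mmp8, Ltf and Mmp9, whose products are stored in secondary or gelatinase granules. Ltf differed by 4.06 ± 1.09 (SE) on the log2 scale (limma adjusted p = 0.0106) and had positive values under the 4 other scalings, 1.06 to 2.65. It passed after quantile normalization (adjusted p = 0.0264) and not after median centring, scaling on the spiked controls or the level adjustment (0.190, 0.371 and 0.159). Mmp8 differed by 4.37 ± 0.70 (limma adjusted p = 0.000785), a value that depends on the pseudocount of 16 and is not a measured fold, since both wild-type Igκ+ arrays were below their control level. Its values under the 4 other scalings were 1.45 to 2.95, with adjusted p of 0.00889 (quantile) and 0.0322 (median centring), and not past the threshold with the spiked controls (0.0622) or the level adjustment. Mmp9 differed by 2.51 ± 0.69 (adjusted p = 0.0116), but was at -0.03 after quantile normalization and -0.07 after scaling on the spiked controls, and its second probe set differed by 0.46 with an adjusted p of 0.389. That probe set was called lower by limma after quantile normalization (-1.63), median centring (-1.92) and the level adjustment (-2.21), with adjusted p of 0.0145, 0.00572 and 0.00827. The primary granule genes had means near those of the wild-type Igκ+ group, which average a replicate above both TAK1-deficient arrays with one below, with log2 differences of -0.03 ± 1.85 for Elane, -0.17 ± 2.12 for Mpo, 0.00 for Prtn3 and -0.09 for Ctsg. Without both wild-type arrays numbered 1, Elane, Mpo and Ctsg differed by 1.45, 2.04 and 1.42, beside a median of 1.13 for all probe sets. That fit has 1 wild-type Igκ+ array, with a control level of 10.3, against 77.7 and 75.7 on the TAK1-deficient arrays. Elane (99.0 and 73.0) and Ctsg (107 and 102) were near or below the latter, so background enters their differences. S100a8, S100a9, Camp, Ngp and Fcnb had log2 differences from 2.64 to 3.69 that did not pass, with adjusted p from 0.0632 to 0.270. A test of secondary against primary granule genes was not made.

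**Figure D4:**
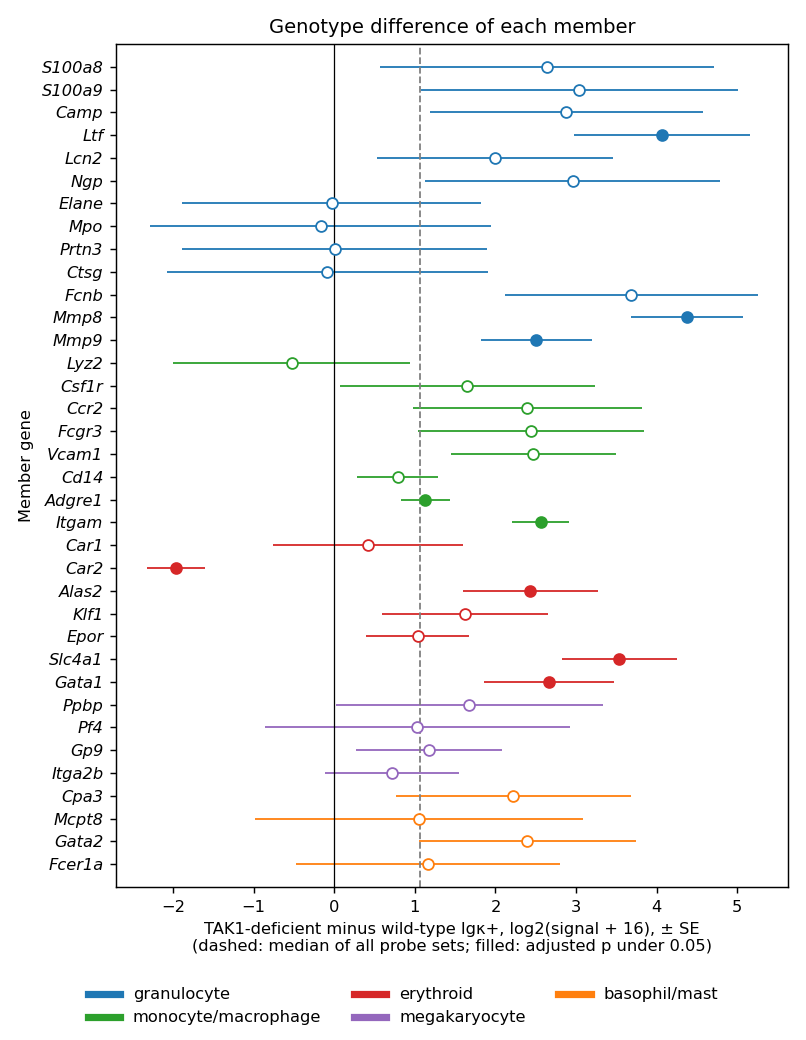
Log2 difference of TAK1-deficient minus wild-type Igκ+ cells with its standard error for each of the 36 member genes, from log2(signal + 16). Filled points passed an adjusted p of 0.05, the dashed line marks the median of all probe sets at 1.06, and the 4 primary granule genes Elane, Mpo, Prtn3 and Ctsg lie near 0.

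In the monocyte list Itgam and Adgre1 rose. Itgam differed by 2.56 ± 0.35 on the log2 scale (limma adjusted p = 0.000372), but by -0.26 after the level adjustment, which takes out of each TAK1-deficient array a smooth dependence on how bright a probe set is in wild-type cells. Adgre1 differed by 1.13 ± 0.30 (adjusted p = 0.0104), but the call turned to lower after median centring (-1.25, adjusted p = 0.00617) and after scaling on the spiked controls (-1.95, adjusted p = 0.000242). For Ccr2 and Vcam1 the brightest probe set did not pass (2.39 ± 1.42 and 2.47 ± 1.02). Of each, 2 others did, with log2 differences of 2.37 and 2.32 for Ccr2 and 3.54 and 2.65 for Vcam1. Under the 4 other scalings those of Ccr2 lay from -0.51 to 0.11 and did not pass. The Vcam1 probe set at 3.54 lay from 0.54 to 1.72 and passed after quantile normalization only. The one at 2.65 lay from -0.36 to 0.71 and did not pass. It was below the control level on both wild-type Igκ+ arrays and on TAK1-deficient replicate 2. Lyz2 had -0.53 ± 1.47 with an adjusted p of 0.752.

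Of the erythroid genes Slc4a1, Gata1 and Alas2 rose and Car2 fell. Slc4a1 differed by 3.54 ± 0.72 (limma adjusted p = 0.00271), its other 2 probe sets were called too with 2.32 and 2.22, and it had positive values under the 4 other scalings, 0.54 to 1.67, that passed after quantile normalization (0.0245) and not after median centring, scaling on the spiked controls or the level adjustment (0.175, 0.490 and 0.197). The other 2 probe sets lay from -0.43 to 0.02 under these scalings. Gata1 differed by 2.67 ± 0.81 (adjusted p = 0.0176) and by 0.05 to 0.53 under the other scalings, where it did not pass (0.619 to 0.957). Alas2 differed by 2.43 ± 0.84 (adjusted p = 0.0299) and by -0.53 after the level adjustment, and both wild-type Igκ+ arrays and the second TAK1-deficient array were below the control level. Car2 fell by 1.97 ± 0.36 on the log2 scale (adjusted p = 0.00161) and was lower under every scaling, from -0.66 with the level adjustment, where its adjusted p was 0.176, to -4.87 with scaling on the spiked controls. Mmp8, Itgam, Slc4a1 and Car2 passed in each fit that left out a single array. Without wild-type Igκ+ replicate 2, Ltf, Mmp9, Adgre1, Gata1 and Alas2 did not, with limma adjusted p of 0.0781, 0.0741, 0.0615, 0.118 and 0.135. Without TAK1-deficient replicate 1, Adgre1, Gata1 and Alas2 were at 0.0868, 0.0760 and 0.149, and without wild-type Igκ+ replicate 1 Alas2 was at 0.0858. Mmp9 was at 0.0692 without TAK1-deficient replicate 2, and the log2 difference of Alas2 was 3.58 without that array and 1.29 without the other.

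The scalings moved the lineage medians of this comparison past 0. For granulocyte genes the median log2 difference was 2.64 as deposited, 1.91 after quantile normalization, 1.48 with the level adjustment, 0.26 after median centring and -0.36 with scaling on the spiked controls. For megakaryocyte genes it was 1.10, -0.95, -0.31, -1.28 and -1.02, and for erythroid genes 1.62, -0.78, -0.53, -0.76 and -0.22. With the level adjustment 0 member probe sets were called higher, beside 22.3% of all, and 3 lower, beside 18.5%. The same settings moved the median of all probe sets from 1.06 to -0.20, 0.00, -1.32 and -1.22, and the share of higher among all calls from 66.0% to 43.5%, 54.7%, 25.4% and 23.3%. The granulocyte median was above that of all probe sets in each of these settings.

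The wild-type arrays chosen as the base also set the result. Without wild-type Igκ+ replicate 2 the number of member probe sets called higher was 6, beside 44% of all probe sets, with 1 lower, beside 23%. With both wild-type arrays numbered 1 left out it was 36 of 47 (76.6%), beside 45.7% of all probe sets, and 1 lower, beside 23.9%, with a granulocyte median of 4.16. In that fit S100a8 differed by 4.58, S100a9 by 4.82 and Mpo by 2.04 on the log2 scale. The arrays left out were chosen by the members' own values. Their granulocyte sums were 5802 (Igκ+) and 42916 (Igλ+), against 375 and 370 on the wild-type arrays kept. A larger member share and larger differences are thus built into the choice. Each wild-type group had 1 array left, so the spread between replicates came from the TAK1-deficient pair alone. No conclusion on genotype is drawn from that fit. Leaving out either wild-type Igλ+ array, neither of which enters the difference, gave 30, as did a fit on the 4 Igκ+ arrays alone, where 50.8% of all probe sets were called higher and 26.9% lower; these fits differ from the first in the shared estimate of the spread and not in the difference. The other lists had calls in the fit on all arrays too, to be read beside 50.8% of all probe sets called higher and 26.1% lower: 4 of 14 further granulocyte genes were called higher and 2 lower, 5 and 7 of 13 further monocyte, 10 and 1 of 12 further erythroid, 6 and 2 of 10 further megakaryocyte and 2 and 0 of 6 further basophil and mast cell genes. Of lists for other cells, higher and lower calls were 6 and 0 of 6 stromal, 4 and 1 of 7 T cell, 4 and 1 of 5 endothelial, 3 and 0 of 6 dendritic, 1 and 0 of 5 eosinophil, 1 and 0 of 3 stem and progenitor, 0 and 0 of 5 NK cell and 4 and 3 of 9 B cell genes. Of the 5 measured genes of the depleted antigens 4 were called higher and 0 lower.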

How the data were processed

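The 6 Affymetrix arrays carried 45101 probe sets and RNA of sorted B cells from bone marrow. Values deposited by the authors are intensities (signals) from MAS5, per the submitters' processing notes, which name no version. The mean of each array, trimmed by 2% of probe sets at either end, is 500.0. No detection calls were used; the 95th percentile of 27 unspiked control probe sets of an array served as its control level. Scaling a weak array to a common mean raises its background together with its signals. The arrays come with no genome build, and promoter coordinates are those of RefSeq's GRCm38.p6.

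Probe sets were named from the platform annotation: 34945 carried 1 gene, 932 several, 9160 none, and 64 were controls. Signals were converted to log2(signal + 16), which understates the change of dim genes. Groups were compared with limma 3.58.1 (R 4.3.3): one mean per group over all 6 arrays, two-sided tests with eBayes and a mean-variance trend, Benjamini-Hochberg over all 34945 probe sets, threshold 0.05. Lists were described by counts, sums and medians without a test. The code was tested on simulated data. Figures were drawn with matplotlib 3.10.9.

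The members and lists were chosen with earlier results of these data known. Members called in any fit with one array left out, and the 3 brightest of each lineage on the wild-type arrays, were given array by array; of other lists up to 2 of the brightest genes were named, and Prg2, Gzma and Tubb1 were named after their values were seen. Alternatives were pseudocounts of 1 and 64, quantile normalization, median centring, a filter on means below the 40th percentile, scaling on 18 spiked control probe sets, the level adjustment (lowess, span 0.2), 1 probe set per gene, no trend, only the 4 arrays compared, the replicate number as a block, and leaving out each array. Leaving out both wild-type arrays numbered 1, the check of light chain signals and the medians with signals raised to the control level were added after the data were seen.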

Additional observations from a re-analysis of the deposited data

Results flagged for a closer look

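Probe sets shared by several genes entered no test above, and 5 of them that belong to the lineages described had a signal above the control level on wild-type Igλ+ replicate 1. One shared by 4 beta-globin genes (Hbb-bt, Hbb-bs, Hbb-b2 and Hbb-b1) was 2627 on that array, against 611 on Igλ+ replicate 2, 674 and 580 on the wild-type Igκ+ arrays, while TAK1-deficient cells gave 308 and 451. Those of the alpha-globin genes Hba-a1 and Hba-a2 were 93.78, 640.4 and 691.9, against 6.18, 31.1 and 55.6 on Igλ+ replicate 2. One shared by Ly6c1 and Ly6c2, whose products a common antibody against Gr1 can bind, was 3177, against 406 on Igλ+ replicate 2, 922 and 411 on the wild-type Igκ+ arrays, while TAK1-deficient cells gave 151 and 24.3. All 5 were higher on Igλ+ replicate 1 than on the other wild-type arrays. The cause was not tested.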

How the results depend on the processing

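In TAK1-deficient against wild-type Igκ+ cells, the 14 member probe sets called higher became 8 with a filter on low values (33 of 47 members kept), 8 with 1 probe set per gene (36 tested), 4 after quantile normalization, 1 after median centring, 0 with scaling on the spiked controls, 0 with the level adjustment, and 30 with only the 4 arrays compared (of all probe sets 31.1%, 49.5%, 25.4%, 18.4%, 16.2%, 22.3% and 50.8% in this order); at an unadjusted p under 0.05 the 2 settings with 0 had 4 members each in either direction. Leaving out one array gave 6 to 30, and leaving out both wild-type arrays numbered 1 gave 36. The 1 called lower became 3 (quantile), 4 (median centring), 3 (spiked controls) and 3 (level adjustment). Of all probe sets 33.0%, 54.0%, 53.4% and 18.5% were called lower in these settings. With the replicate block the counts were 18 higher and 1 lower, beside 51.3% and 26.2% of all probe sets, and 0 in the Igλ+ comparison. Replicate differences of the wild-type groups correlated at 0.21 over probe sets, but those of the TAK1-deficient and wild-type Igκ+ groups at 0.00189. The labels do not say that a replicate number pairs arrays, so it was not taken as a pairing. Without Igλ+ replicate 2, the member median of the Igλ+ comparison moved from 0.98 to 3.06, with a lone Igλ+ array left. Called values that turned, for the brightest probe sets, were Mmp9 (-0.03 quantile, -0.07 spiked controls), Adgre1 (-1.25 median centring, -1.95 spiked controls), Itgam (-0.26) and Alas2 (-0.53, both level adjustment). Other called probe sets turned too under these scalings. Those of Ccr2 lay from -0.51 to 0.11 and those of Slc4a1 from -0.43 to 0.02. The Vcam1 probe set called at 2.65 was at -0.36 with the level adjustment. Elane (1.45), Mpo (2.04) and Ctsg (1.42) turned without both arrays numbered 1, where 1 wild-type Igκ+ array was left. Values that turned and were called only under the alternative were Cd14 (-1.47 quantile, -1.59 median centring, -1.78 level adjustment), Epor (-1.88 level adjustment) and the second Mmp9 probe set (-1.63 quantile, -1.92 median centring, -2.21 level adjustment). The cause was not tested. Igλ+ replicate 1 stayed the highest wild-type array for 35 of 36 genes under quantile normalization, median centring and scaling on the spiked controls. On the TAK1-deficient arrays, signals under the control level of 75.7 to 77.7 are not separable from background.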
